A study of Drosophila melanogaster with 6 samples.

Results

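The 10 genes described here belong to families of receptors with which fly blood cells bind and take up bacteria, cell debris and modified lipoproteins. The class C scavenger receptors are Sr-CI, Sr-CII, Sr-CIII and Sr-CIV, and the CD36 family (class B) proteins are crq, pes and emp. The EGF-repeat receptors are NimC1, eater and drpr. All 10 genes were chosen by gene name, with earlier results of these data known. Each was read by 1 probe set that the array annotation gives to that gene alone, so 10 of 18769 tested probe sets are described. The study set 3 arrays of ROW RNAi cells, which were Drosophila S2 cells given double-stranded RNA that targets ROW and kept with it for 96 h, against 3 arrays of control S2 cells, labelled wild type. Total RNA was amplified, labelled with biotin and hybridised to Affymetrix Drosophila Genome 2.0 arrays. S2 is a hemocyte-like cell line grown from fly embryos, and ROW is a zinc finger protein found on chromatin with HP1c and WOC. The treatment text, which describes double-stranded RNA against ROW, is the same on every sample, controls included, and nothing else says what the controls were given. The effects of ROW depletion and of double-stranded RNA as such cannot be told apart. Separate cultures are not stated for the arrays of a group either, so the p-values rest on a spread between arrays that may be technical.

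Scavenger receptors recognise broad classes of ligands rather than single molecules. Class C receptors are a family of insect proteins, of which Sr-CI binds polyanionic ligands and bacteria. CD36 family proteins thread through the membrane at both ends and bind lipids, apoptotic cells or microbes. The EGF-repeat receptors carry rows of cysteine-rich repeats outside the cell, and drpr signals through the adaptor ced-6 and the kinase Shark to drive engulfment. Plasmatocytes, the macrophage-like hemocytes of the fly, use members of all these families, and S2 cells are themselves phagocytic.

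Values are RMA values on the log2 scale, so a difference of 1 is a 2-fold change of the RMA signal. A level belongs to its own probe set and is not set against that of another. Array medians lay between 4.88 and 5.04. The targeted transcript row was lower on all 3 of its probe sets, at 16.4%, 15.9% and 33.5% of the control level. On the first principal component of all probe sets, which held 66.9% of the variance, ROW RNAi replicates 1, 2 and 3 scored −42.7, 19.5 and −20.8 and the controls 3.7, 26.5 and 13.7. In both groups replicate 1 scored lowest and replicate 2 highest. ROW RNAi replicate 2 lay among the control scores. Values without it are given beside the called genes (without it 2.75% of all probe sets were called). In limma, 218 probe sets changed at a Benjamini-Hochberg adjusted p under 0.05, which is 1.16% of those tested.

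Sr-CIV and Sr-CI rose after ROW RNAi, Sr-CIV 1.82-fold and Sr-CI 1.53-fold. None of the other 8 receptor transcripts passed the test. At an unadjusted limma p under 0.05 stood 5 of the 10 receptors, against 13.8% of all probe sets. In a fit of the 9384 probe sets above the median mean, 2062 stood there, with 5 of the 8 receptors in that fit. The 2 called receptors were both higher, where 0.405% of all probe sets were called higher, and 0 were called lower, where 0.757% of all probe sets were (limma; NimC1 was lower at an unadjusted p under 0.05). ROW RNAi and control arrays were fully separated for 5 receptors, 4 higher and 1 lower, where 7.0% of all probe sets lay wholly higher and 14.4% wholly lower. The median log2 fold change was 0.17 over the 9 receptors above background, and −0.03 over the 14686 probe sets above background on at least 1 array of each group. As the receptors were chosen with earlier results known, these comparisons with all probe sets are descriptions and not tests.

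**Figure D1:**
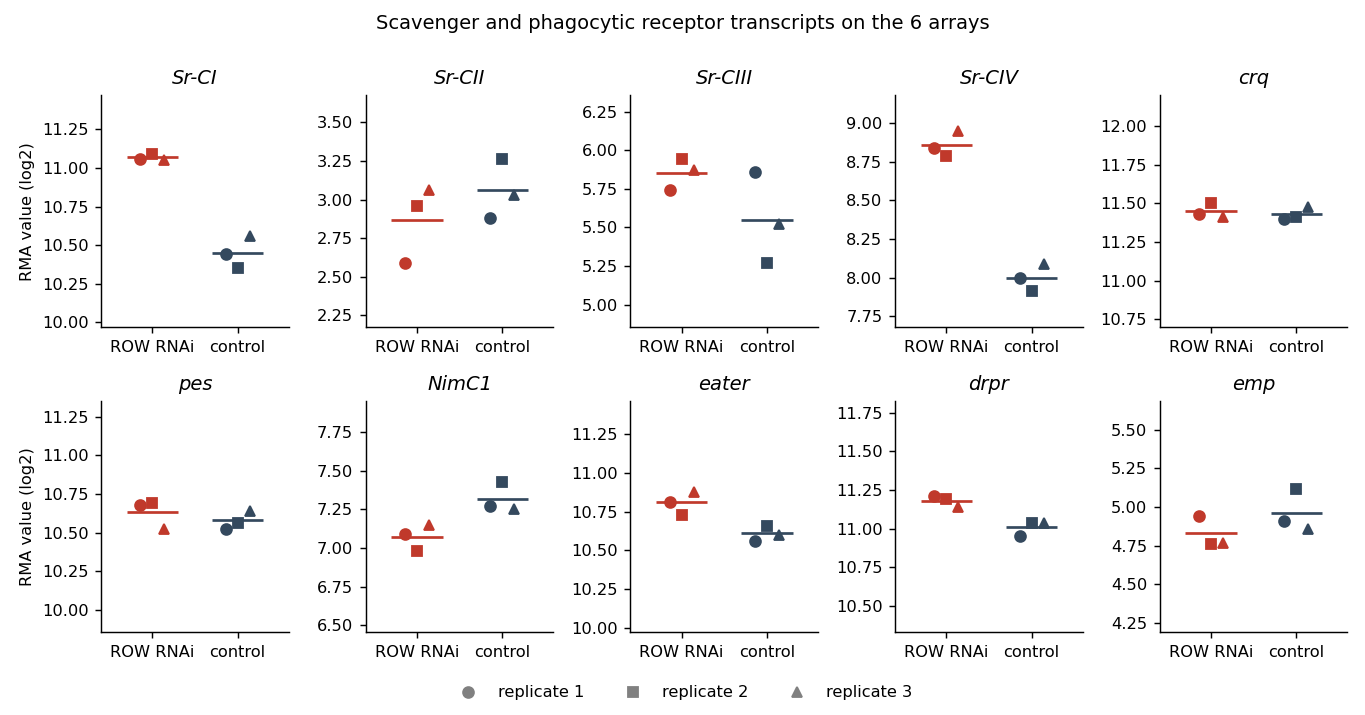
RMA values (log2) of the 10 receptor transcripts on each array, with 3 ROW RNAi arrays left and 3 control arrays right in each panel; marker shapes give the replicate number, lines the group means, and every vertical axis spans the same number of log2 units. Sr-CIV and Sr-CI have the widest gaps between the groups, eater and drpr have small upward gaps, NimC1 has a small downward gap, and the groups overlap for the other 5.

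Among the class C receptors, Sr-CIV had the highest log2 fold change. It read 8.84, 8.79 and 8.95 on ROW RNAi replicates 1, 2 and 3, against 8.0, 7.91 and 8.09 on the control arrays. The lowest ROW RNAi array was above the highest control array, and the arrays within each group lay close together. The log2 fold change was 0.86 (SE 0.07, 95% interval 0.69 to 1.04, limma adjusted p = 0.0095). Without ROW RNAi replicate 2 it was 0.90 (adjusted p = 0.022). Without any 1 of the other 5 arrays it stayed between 0.82 and 0.91 but did not pass, with an adjusted p between 0.051 and 0.078 and an unadjusted p of at most 0.00028.

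Sr-CI, the founding member of the class, read 11.06, 11.09 and 11.05 on the ROW RNAi arrays, against 10.44, 10.35 and 10.56 on the control arrays. The groups did not overlap, and the ROW RNAi arrays were nearly equal (mean 11.07 ± 0.02, SD, n = 3), with a wider spread in the controls (10.45 ± 0.11, SD, n = 3). The log2 fold change was 0.62 (SE 0.07, 95% interval 0.45 to 0.78, limma adjusted p = 0.022). Without ROW RNAi replicate 2 it was 0.60 (adjusted p = 0.040). Without any 1 of the other 5 arrays it stayed between 0.57 and 0.67, but the adjusted p lay between 0.060 and 0.14. The call on Sr-CI also ended under median centring (adjusted p = 0.071) and with an unmoderated test (0.060).

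Sr-CIII is annotated as the next protein-coding gene beside Sr-CI on chromosome arm 2L. Its probe set read 5.74, 5.94 and 5.87 on the ROW RNAi arrays, against 5.86, 5.27 and 5.52 on the control arrays. Control replicate 1 lay inside the ROW RNAi range, so the groups overlapped. The log2 fold change of 0.30 (SE 0.16) did not pass (limma adjusted p = 0.45), and its 95% interval, 0.945-fold to 1.61-fold, holds both no change and the size seen for Sr-CI. Without control replicate 1 the log2 fold change was 0.46, and without control replicate 2 it was 0.16. Sr-CII read 2.59, 2.96 and 3.06 on the ROW RNAi arrays, against 2.88, 3.26 and 3.03 on the control arrays. All 6 values lay below 3.39, the level that 95% of the values of the tag control probe sets stay under, taken as background, so Sr-CII was not above background in either group and no fold is given for it.

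The difference between 2 receptors was also followed array by array, for the 9 pairs within the 3 families that hold receptors above background. Sr-CIV minus Sr-CI was −2.22, −2.30 and −2.10 on the ROW RNAi arrays, against −2.44, −2.45 and −2.48 on the control arrays. Sr-CIV minus Sr-CIII averaged 3.01 ± 0.14 on the ROW RNAi arrays, against 2.45 ± 0.27 on the control arrays (SD, n = 3 each). Sr-CI minus Sr-CIII averaged 5.22 ± 0.09 on the ROW RNAi arrays, against 4.90 ± 0.28 on the control arrays (SD, n = 3 each). In each of these pairs the groups did not overlap, and the exact two-sided permutation p was 0.10, the smallest that 3 arrays against 3 allow (0.18 adjusted over the 9 pairs). A difference in response between the class C receptors was therefore not shown at a threshold of 0.05, which this test cannot reach.

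The CD36 family receptors crq and pes differed little between the groups. The transcript of crq (croquemort), which takes up apoptotic cells in embryonic macrophages, read 11.43, 11.50 and 11.41 on the ROW RNAi arrays, against 11.40, 11.41 and 11.48 on the control arrays. The groups were interleaved, and the 95% interval of the change ran from 0.927-fold to 1.10-fold (limma adjusted p = 0.90). Its sign turned under median centring and when ROW RNAi replicate 2 was left out. The transcript of pes (peste), known from uptake of mycobacteria by S2 cells, read 10.68, 10.69 and 10.52 on the ROW RNAi arrays, against 10.52, 10.56 and 10.64 on the control arrays. These groups overlapped as well, with an interval of 0.926-fold to 1.16-fold (limma adjusted p = 0.73). These intervals hold no change as large as the estimates for Sr-CI and Sr-CIV.

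The third member of the family, emp, was named for its expression in epithelia. It read 4.94, 4.76 and 4.77 on the ROW RNAi arrays, against 4.91, 5.12 and 4.86 on the control arrays, above background on all 6. The groups overlapped, and the log2 fold change of −0.14 (SE 0.09) did not pass (limma adjusted p = 0.54). The probe sets of crq, pes and emp have the suffix that Affymetrix gives to probes shared between transcripts, and the array annotation gives each of them to 1 gene.

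**Figure D2:**
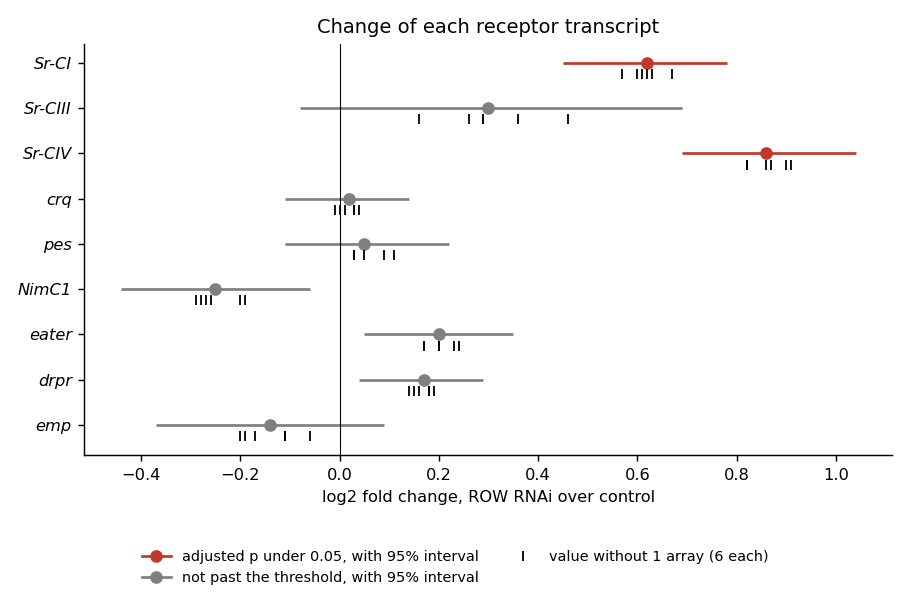
Log2 fold change of the 9 receptor transcripts above background, ROW RNAi over control, as a dot with its 95% interval from limma; red marks an adjusted p under 0.05 and the ticks below each dot are the values with 1 array left out. Sr-CIV (0.86) and Sr-CI (0.62) lie to the right of all other receptors, the intervals of eater, drpr and NimC1 miss 0 without passing the adjusted threshold, and that of Sr-CIII is the widest.

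The EGF-repeat receptors showed small shifts that did not pass the adjusted test. The transcript of eater, a phagocytic receptor for bacteria, read 10.81, 10.73 and 10.88 on the ROW RNAi arrays, against 10.56, 10.66 and 10.60 on the control arrays. All ROW RNAi arrays were above all control arrays, with a log2 fold change of 0.20 (95% interval 0.05 to 0.35, limma adjusted p = 0.25). The transcript of drpr (Draper), which mediates engulfment of dying cells by glia and hemocytes, read 11.21, 11.19 and 11.14 on the ROW RNAi arrays, against 10.95, 11.04 and 11.04 on the control arrays. These groups did not overlap either, with a log2 fold change of 0.17 (95% interval 0.04 to 0.29, limma adjusted p = 0.25).

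NimC1, the plasmatocyte antigen P1 and a receptor for bacteria, lay in the opposite direction. It read 7.09, 6.98 and 7.15 on the ROW RNAi arrays, against 7.27, 7.43 and 7.25 on the control arrays. Every ROW RNAi array was below every control array, with a log2 fold change of −0.25 (95% interval −0.44 to −0.06, limma adjusted p = 0.25). The value of eater minus NimC1 was 3.72, 3.75 and 3.73 on the ROW RNAi arrays, against 3.29, 3.23 and 3.35 on the control arrays. The groups did not overlap for this difference, and its exact two-sided permutation p was 0.10, the smallest possible (0.18 adjusted over the 9 pairs). The value of drpr minus NimC1 averaged 4.11 ± 0.11 on the ROW RNAi arrays, against 3.69 ± 0.09 on the control arrays (SD, n = 3 each). Here too the groups did not overlap, with the same permutation p. For eater minus drpr the groups overlapped, as they did for all 3 pairs of CD36 family receptors.

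NimC1 lies on arm 2L in the Nimrod cluster, in which genes for NIM-repeat proteins stand among a few unrelated genes. Of 18 protein-coding genes annotated from NimA to NimC4, 17 were measured. In limma 3 fell and 0 rose, where 0.757% of all probe sets were called lower and 0.405% higher (NimC4 was higher at an unadjusted p of 0.049). Of the 17, 8 lay wholly lower on the ROW RNAi arrays, NimC2 near background among them, and 1 lay wholly higher. Over all probe sets, 14.4% lay wholly lower and 7.0% wholly higher. Values below 0 came as a run. The 6 neighbours NimB3, NimB4, NimB5, He, NimC1 and Cyp28a5 were all lower on every ROW RNAi array than on any control array, where 14.4% of all probe sets were. This run was noticed after the values were seen, and neighbouring genes may not vary independently, so it is given as a description.

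Within the run, He, which encodes the hemocyte surface protein hemese, read 11.0, 10.90 and 11.02 on the ROW RNAi arrays, against 11.65, 11.62 and 11.72 on the control arrays. It fell to 62.1% of the control level (log2 fold change −0.69, SE 0.06, limma adjusted p = 0.010). Cyp28a5, a cytochrome P450 gene next to NimC1, read 9.34, 9.20 and 9.18 on the ROW RNAi arrays, against 9.71, 9.68 and 9.65 on the control arrays (log2 fold change −0.44, SE 0.06, limma adjusted p = 0.041). Both changes kept their direction without any 1 array, but He then passed only without ROW RNAi replicate 2 (adjusted p = 0.023) and Cyp28a5 in no case (adjusted p of 0.056 or more). The call on Cyp28a5 also ended under each other normalization (0.053 to 0.057) and with an unmoderated test (0.078). The Nimrod genes of the run had log2 fold changes of −0.38 for NimB3, −0.53 for NimB4 and −0.45 for NimB5, none of which passed (limma adjusted p of 0.11 to 0.27). NimC2, the next gene after Cyp28a5, was above background on 2 control arrays and on 0 ROW RNAi arrays, so no fold is given for it.

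Outside the run, NimA, NimB1, NimB2 and NimC3 had log2 fold changes between −0.09 and 0.20 with overlapping groups. NimC4, which encodes the apoptotic cell receptor Simu, read 11.12, 11.23 and 11.12 on the ROW RNAi arrays, against 11.0, 11.05 and 11.03 on the control arrays. Farther along the cluster hll fell, by 0.71 on the log2 scale (limma SE 0.09, adjusted p = 0.038), but leaving out any 1 array ended the call (adjusted p of 0.050 or more), as did median centring (0.053), a further quantile normalization (0.050) and an unmoderated test (0.10).

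**Figure D3:**
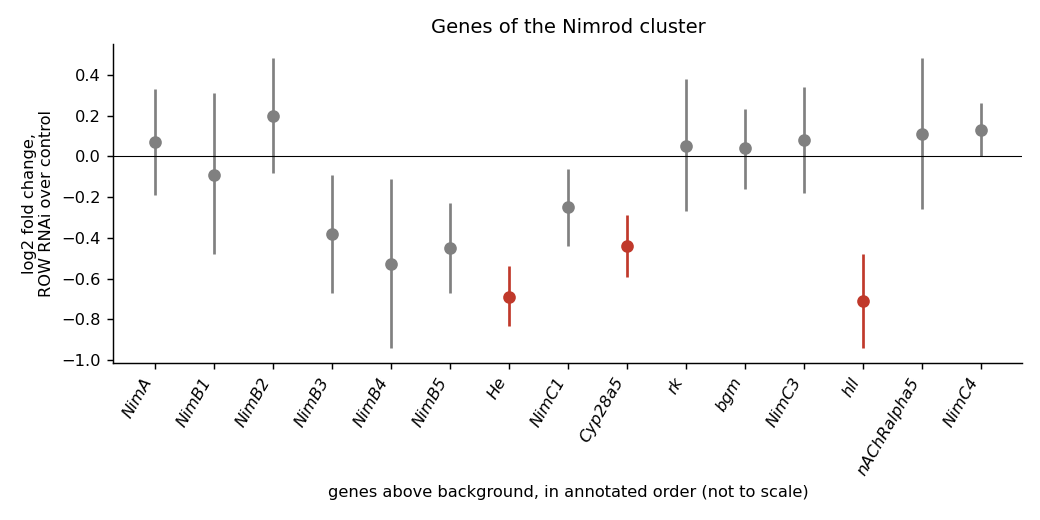
Log2 fold change, ROW RNAi over control, of the 15 genes of the Nimrod cluster above background in both groups, in annotated order, with 95% intervals from limma; red marks an adjusted p under 0.05. The 6 genes from NimB3 to Cyp28a5 all lie below 0, with He lowest in the run at −0.69. The genes shown on either side of the run lie near 0 or above it, apart from hll at −0.71. NimC2, next after Cyp28a5, is not shown.

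Little could be read from the annotated neighbours of the receptors that rose. Around Sr-CIV, CG8852 had a log2 fold change of 0.09 and Spindly −0.04, and beside Sr-CIII ed had 0.13, none of which passed. The other neighbours, CG8851, CG3213, CG2955 and Or24a, were not above background in 1 or both groups. Over all receptors, 32 other genes within 2 places were measured, 22 of them above background in both groups. In limma 3 of the 32 passed, where 1.16% of all probe sets did. These were He and Cyp28a5, already counted in the Nimrod cluster, and CG7231, next to pes (log2 fold change −0.99, SE 0.14, limma adjusted p = 0.044). With 1 array left out, CG7231 passed only without ROW RNAi replicate 2 (adjusted p = 0.023), and its call also ended under median centring (0.071), a further quantile normalization (0.077) and an unmoderated test (0.12).

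Other receptors and the machinery that acts with them were read from lists of related genes, with the brightest probe set of each gene. Of 10 further CD36 family genes measured, 3 were below background on all arrays. None passed in limma (1 at an unadjusted p under 0.05), and the median log2 fold change of the 7 above background in both groups was 0.14. CG7227, beside pes, was the 1 with groups that did not overlap, at 0.26 (limma SE 0.07, adjusted p = 0.23). Over all probe sets, 7.0% lay wholly higher. Of 9 measured opsonins and other phagocytic receptors, 1 rose in limma, where 0.405% of all probe sets did, and 0 fell. The median was 0.05.

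The gene that rose was Itgbn, which encodes the integrin beta-nu subunit, an uptake receptor for apoptotic cells and bacteria. It read 10.54, 10.54 and 10.53 on the ROW RNAi arrays, against 10.02, 10.11 and 10.12 on the control arrays. The groups were clearly apart, at a log2 fold change of 0.46 (limma SE 0.05, adjusted p = 0.021). Without ROW RNAi replicate 2 the adjusted p was 0.040, and without any 1 of the other arrays it did not pass (0.092 to 0.125). Median centring ended the call too (0.15). The gene for its alpha partner, scb, had a log2 fold change of 0.24 with groups that did not overlap (SE 0.08, limma adjusted p = 0.30).

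None of the measured genes listed for signalling below the receptors, uptake or phagosome maturation passed in limma; Src42A, mbc, Rac1, Rac2, Cdc42, Rab5, Rab7 and Rab11 were not analysed here. Of 9 engulfment signalling genes measured, 1 had an unadjusted p under 0.05 and the median log2 fold change was −0.03. The adaptor gene ced-6 and the kinase gene Shark, which act below drpr, had 0.02 (SE 0.05) and 0.01 (SE 0.06). The 1 gene under 0.05 was the adaptor gene Crk, with the lowest value, −0.28 (SE 0.06, limma adjusted p = 0.12). It was also the 1 gene of this list with groups that did not overlap, where 14.4% of all probe sets lay wholly lower. Of 17 measured genes of uptake and phagosomes, 1 had an unadjusted p under 0.05, with a median of −0.01. That gene was Npc2a, of sterol transport, at 0.29 (SE 0.07, adjusted p = 0.19), while the clathrin heavy chain gene Chc, the lysosomal membrane gene Lamp1 and the protease genes cathD and CtsL1 lay between −0.04 and 0.02.

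**Figure D4:**
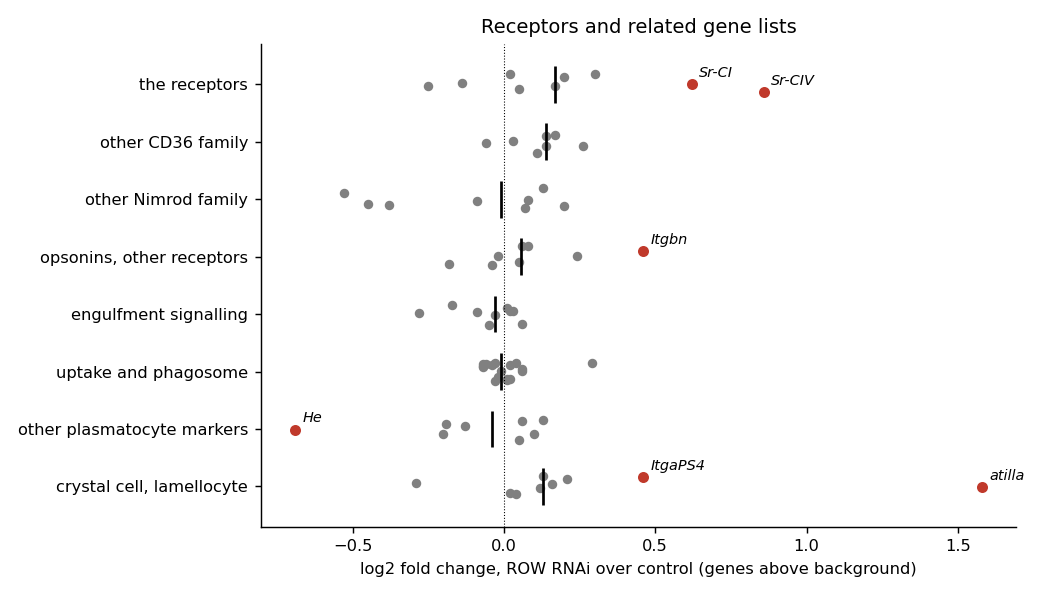
Log2 fold change, ROW RNAi over control, of single genes (dots, brightest probe set of each) in the receptors and 7 related lists, without genes that were not above background in 1 or both groups; black bars are list medians, and red dots with names have an adjusted p under 0.05. Sr-CIV and Sr-CI stand at the right of the receptors, and uptake and phagosome genes are packed near 0 apart from Npc2a.

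The hemocyte identity of the cells was checked on marker lists, with the limit that markers of other tissues were also above background. Of 9 measured plasmatocyte and general hemocyte markers other than the receptors, 8 were above background on all arrays, and gcm was below it on all. He was the 1 that passed, and fell, where 0.757% of all probe sets were called lower. The groups did not overlap for 5 of the 9, 4 lower and 1 higher. Over all probe sets, 14.4% lay wholly lower and 7.0% wholly higher. Besides He, the log2 fold change was −0.20 for the peroxidase gene Pxn, −0.19 and −0.13 for the collagen IV genes vkg and Col4a1, and 0.10 for ush (limma adjusted p of 0.19 or more). The GATA factor gene srp (0.05, SE 0.06) and Hml (0.13, SE 0.06) overlapped. The mean level of this list lay between 10.02 and 10.11 on the ROW RNAi arrays, against 10.09 to 10.17 on the control arrays. The mean level of crystal cell and lamellocyte markers was separated between the groups in the same direction as Sr-CI and Sr-CIV. This mean level lay between 7.43 and 7.47 on the ROW RNAi arrays, against 7.16 to 7.20 on the control arrays. Without atilla the mean lay between 7.38 and 7.48 on the ROW RNAi arrays, against 7.28 to 7.35 on the control arrays. All 9 measured were above background, and the median log2 fold change was 0.13. In limma 2 rose and 0 fell, where 0.405% of all probe sets were called higher and 0.757% lower.

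These 2 were atilla, a lamellocyte surface marker, and ItgaPS4, an integrin gene. For atilla the values were 7.85, 7.37 and 7.74 on the ROW RNAi arrays, against 6.17, 6.04 and 6.01 on the control arrays (log2 fold change 1.58, SE 0.13, limma adjusted p = 0.010). For ItgaPS4 they were 8.50, 8.59 and 8.37 on the ROW RNAi arrays, against 8.04, 8.03 and 8.02 on the control arrays (log2 fold change 0.46, SE 0.07, limma adjusted p = 0.0495). With 1 array left out, atilla passed without ROW RNAi replicate 1 or 2 (adjusted p = 0.042 and 0.0067) and ItgaPS4 without ROW RNAi replicate 2 (0.047), and neither passed without another array. An unmoderated test ended both calls (0.057 for atilla, 0.096 for ItgaPS4), and median centring that on ItgaPS4 (0.22). The groups did not overlap for 5 of the 9, all higher, where 7.0% of all probe sets lay wholly higher. These were atilla, ItgaPS4, PPO3 (0.21), cher (0.16) and mys (0.12). The groups overlapped for the crystal cell genes PPO1 (0.02), PPO2 (−0.29), lz (0.13) and peb (0.04). In RNA of whole cultures, more cells of a type and more RNA per cell cannot be told apart, and the part of these markers in the rise of Sr-CI and Sr-CIV was not tested.

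Lists for other tissues had levels that overlapped between the groups. Mean levels of fat body markers lay between 4.24 and 4.42 on the ROW RNAi arrays, against 4.29 to 4.34 on the control arrays, with 7 measured, 4 above background on all arrays and Lsp2 below it on all. Neuron markers lay between 6.04 and 6.51 on the ROW RNAi arrays, against 6.15 to 6.40 on the control arrays, with 7 of 7 above background on all arrays. Germline markers lay between 7.18 and 7.49 on the ROW RNAi arrays, against 7.17 to 7.39 on the control arrays, with 5 of 7 above background on all arrays. In limma 0 of the 21 genes in these 3 lists passed, with 3, 3 and 2 at an unadjusted p under 0.05. Of all probe sets, 1.16% passed and 13.8% stood under 0.05 unadjusted.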

How the data were processed

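The deposited values are log2 values, 1 per probe set and array, which the authors made with RMA (background correction, quantile normalization between arrays and a summary over probes), per the submitters' processing notes. The version of RMA is not stated there. Quantile normalization makes the distributions of the arrays nearly equal, which would hide a change common to most transcripts. Per the labels' protocols, 25 ng of total RNA was amplified isothermally, which can compress fold changes.

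Of 18952 probe sets, 183 Affymetrix controls were left out and 18769 tested without a filter on dim ones. Symbols came from the platform annotation, updated by gene ID against RefSeq (Release 6 plus ISO1 MT): 13647 probe sets had 1 symbol (13544 matched), 402 several and 4720 none. That table also gave gene order, and its coordinates are not printed. Background is the 95th percentile of 17 tag control probe sets, 3.39. Sequences were not used here, so the planned promoter search and protein comparison were not made.

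Groups were compared with limma 3.58.1 (lmFit, eBayes, two-sided) in R 4.3.3, with Benjamini-Hochberg adjustment over all tested probe sets. SE and intervals are limma's. Differences between receptors were compared by exact permutation of arrays. The fit was tested on simulated data of 18769 probe sets for ROW RNAi against control, 200 of them changed. It recovered 54% of changes of 0.585 (log2), 78% of 1, 98% of 2 and 98% of 3, with 11 others called. The simulated noise was independent between probe sets. In the real arrays many probe sets deviated together, so these rates may not carry over to them. Receptors, lists and tests were chosen with earlier results of these data known. Named genes were all 10 receptors, row, list genes past the threshold and up to 4 of the brightest others per list; further list genes, and the neighbours and cluster genes, were named after their values were seen. List genes without a probe set of their own were not analysed here. The number of arrays limits the precision. Figures were drawn with matplotlib 3.10.9.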

Additional observations from a re-analysis of the deposited data

How the results depend on the processing

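The alternatives were median centring, cyclic loess, a further quantile normalization, 2 filters on dim probe sets, trend and robust variance, an unmoderated test, array weights, a replicate block and leaving out each array. Over these 15, Sr-CIV stayed between 0.82 and 0.91 (log2 fold change) and passed in 9, and Sr-CI stayed between 0.57 and 0.67 and passed in 7. The count of changed receptors (2, both higher, 0 lower) fell to 1 with median centring and to 1 with the unmoderated test. In both cases Sr-CIV stayed called as higher and Sr-CI was lost. With 1 array left out the receptors changed numbered 0 to 2, with 0 to 2 higher and 0 lower; the 2 came without ROW RNAi replicate 2, and limma gave 0 without each other array, with 4 or 5 at an unadjusted p under 0.05. With trend and robust variance drpr passed as well (adjusted p = 0.0498). The change of crq turned to −0.03 under median centring and to −0.01 when ROW RNAi replicate 2 was left out (−0.01 to 0.04 over the arrays); no other receptor turned. Changed probe sets over the whole array (218) numbered 107 with median centring, 575 above the median mean (fewer tested), 558 with trend and robust variance, 122 with the unmoderated test and 24 to 517 with 1 array left out (517 without ROW RNAi replicate 2). With the replicate block, limma called 0 receptors (0 higher; 2 at an unadjusted p under 0.05) (Sr-CIV adjusted p = 0.057, Sr-CI 0.12) and 0 probe sets (2924 at an unadjusted p under 0.05), and row stood at −1.58 (adjusted p = 0.056; over the alternatives 1.3e-06 to 0.056). Same-numbered arrays deviated together with r of 0.48, 0.55 and −0.04, and replicates had the same order on the first principal component in both groups. No label ties equal numbers to a common culture or day. The arrays were treated as unpaired, though whether they were paired is not stated. Apart from the fewer probe sets or arrays in some fits, the cause of these changes was not tested. Signal near background limits Sr-CII, NimC2, 3 further CD36 family genes and 10 of the 32 neighbours.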
